A study of Mus musculus with 45 samples.

Results

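Meningeal macrophages were compared with microglia in mice of postnatal day 56 (P56, 8 weeks), over all genes, as 3 libraries against 5. These are the libraries whose labels give that age and the population meningeal macrophage (mMΦ) or microglia, 8 of the 45 libraries of the series, and no measured value entered their choice. All came from untreated C57BL/6J mice of the genotype Cx3cr1GFP/wt, in which GFP replaces the coding part of 1 copy of Cx3cr1, the receptor for fractalkine, so both groups carried 1 working copy. The cells were sorted from the brains of individual mice, and each library was treated as 1 animal. Neither the sort gates nor the sexes nor the part of the meninges sampled is stated in the labels. All 3 mMΦ libraries and microglia replicates 1 to 3 belonged to sequencing project S232, and microglia replicates 4 and 5 to project S276. The same populations at P21 (3 mMΦ and 5 microglia libraries) and 4 libraries of perivascular macrophages (pvMΦ) at P56, all of the same strain and genotype, served only to show where the comparison differed.

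Microglia are the resident macrophages of the brain parenchyma, and meningeal macrophages live at the border of the brain, in the membranes that cover it. Both depend on signalling through the receptor Csf1r, and each population takes on a programme that its tissue maintains: microglia keep a set of purinergic and surveillance receptors and the transcription factor Sall1, and border macrophages keep scavenger receptors, lectins and, in part, antigen presentation by MHC class II. Adult border macrophages are commonly recognised by Mrc1 (the mannose receptor CD206), Lyve1, Cd163 and Pf4, and adult microglia by P2ry12, Tmem119 and Siglech.

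The RNA of each sample was amplified as full-length cDNA from a very small input, and reads were counted per gene. Total counts ran from 9898257 in microglia replicate 2 to 24979129 in mMΦ replicate 2. The 13 pairs of libraries within a group all differed beyond sampling noise, so none was a second read of the same library. That check cannot show whether libraries came from different mice. Levels are CPM (counts scaled to a common library total) scaled by the trimmed mean of M values (TMM), which divides out depth but not gene length, so they compare libraries and never genes. Fold changes are log2 of mMΦ over microglia. The value printed as SE (standard error) is the absolute log2 fold change divided by the square root of F, since the test gives no standard error. It restates the test and should not be read as an interval, least of all for a gene at or near 0. Both values come from the quasi-likelihood F test of edgeR with the project as a term. That term makes the fold change rest on the 6 libraries of project S232, with the S276 microglia adding to the estimate of the spread. For a gene at or near 0 in 1 group the fitted fold change depends on the prior count that the fit adds and is no bound. Such values also moved with single libraries: of 126 called genes checked, 17 had fitted fold changes that ranged over more than 2 log2 units when each library was left out in turn. A gene was called at an adjusted p (Benjamini-Hochberg over all genes tested) under 0.05. In sorted bulk samples, fewer cells of a kind and less RNA per cell cannot be told apart.

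Of 11854 genes tested, 714 (6.02%) were called: 390 (3.29%) were higher in mMΦ and 324 (2.73%) were lower. These shares are the background for the counts given for each gene list below. The genes with the smallest p among those higher in mMΦ were Lyz2 (lysozyme), Cybb (the catalytic subunit of the phagocyte oxidase), Clec4n (the lectin Dectin-2), the membrane proteins Ms4a7 and Ms4a4a, Folr2 (a folate receptor), Lyve1, Apoe, Cxcl2, Wfdc17, Clec10a and Ccn1. Those lower included P2ry12, Sparc, Siglech, Cd9, Selplg, Tmem119, Gpr34, Adgrg1, Upk1b, F11r and Susd3. Lyz2 stood at 24392, 23925 and 21988 CPM in the 3 mMΦ libraries and at 417, 463, 404, 312 and 212 CPM in the 5 microglia libraries, a log2 fold change of 5.78 (SE 0.19, adjusted p = 6.1e-06). Apoe, the lipid carrier, stood at 79773, 67898 and 75618 CPM against 266, 214, 465, 406 and 298 CPM (7.88, SE 0.37, adjusted p = 1.8e-05). In both genes each mMΦ library was above all microglia libraries. The groups did not overlap in 2120 genes (17.9% of those tested), of which 1174 (9.90%) were wholly higher and 946 (7.98%) wholly lower in mMΦ. The count of calls depended on single libraries: it fell to 472, 400 and 371 without mMΦ replicate 1, 2 or 3 and to 459 without either S276 microglia library. Within project S232 alone 518 genes were called, and 323 genes, 185 higher and 138 lower, were called in the full comparison and again without each of the 8 libraries in turn.

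**Figure D1:**
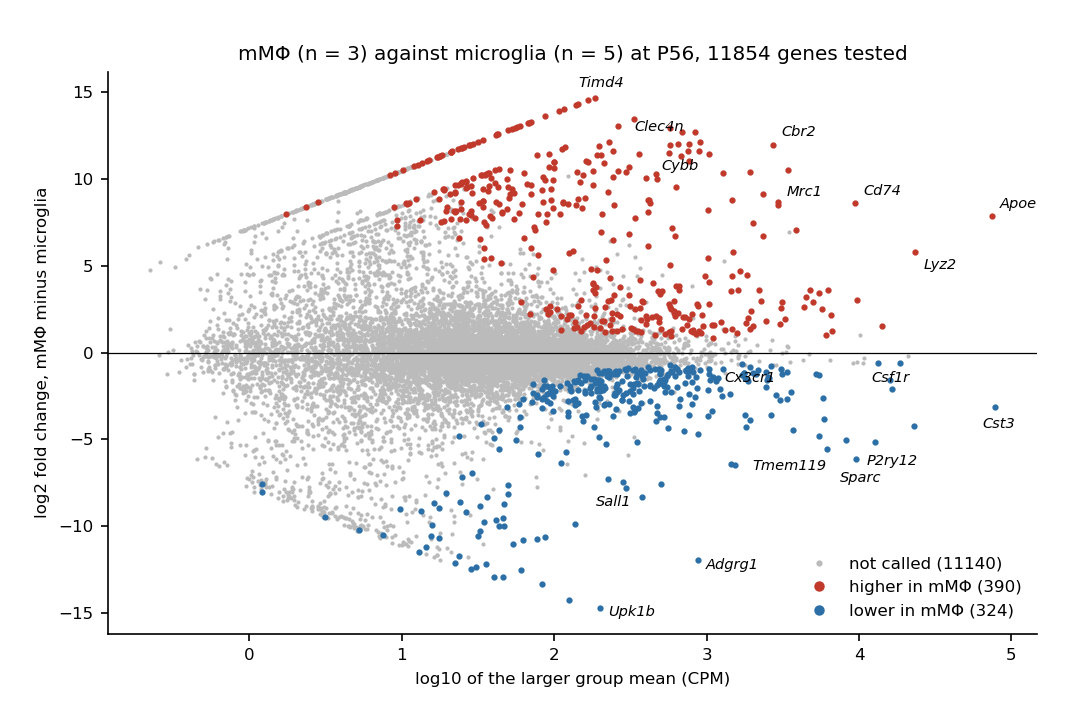
Each dot is 1 of 11854 genes; the x axis is log10 of the larger of the 2 group means in CPM and the y axis the log2 fold change of mMΦ over microglia. Genes called higher in mMΦ (390, red) and lower (324, blue) lie on both sides of 0, with Apoe and Lyz2 at the upper right, P2ry12 and Cst3 at the lower right, and Csf1r among the genes that were not called.

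The labels were checked first. Mrc1 stood at 3085, 2713 and 3060 CPM in mMΦ and at 1.66, 13.6, 9.06, 7.59 and 8.68 CPM in microglia (8.53, SE 0.78, adjusted p = 5.4e-04). P2ry12, a receptor for ADP, went the other way, at 361, 369 and 320 CPM in mMΦ against 14514, 12456, 10242, 13108 and 12879 CPM in microglia, 35.4-fold lower in mMΦ (-5.15, SE 0.17, adjusted p = 6.1e-06). Every library therefore matched the population on its label for these 2 genes. Cx3cr1 was 306, 543 and 588 CPM in mMΦ and 2101 to 4114 CPM in microglia (-2.67, SE 0.31, adjusted p = 0.0018), so the locus of the reporter was itself 6.35-fold lower in mMΦ. Csf1r was 4436, 5633 and 5564 CPM in mMΦ and 6601 to 16215 CPM in microglia, a difference that was not called (-0.62, SE 0.22, adjusted p = 0.15), although no mMΦ library reached the lowest microglia library.

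The 30 border macrophage markers behaved nearly as a block. Of 28 tested, 25 were called higher in mMΦ and none lower, and 23 kept the call without each library in turn. Their median log2 fold change was 10.19, against -0.09 over all genes. That median rests in part on microglia values near 0, where the fitted fold change depends on the prior count. No marker of the list was at 0 in a whole group, so replacing such genes by their bound could not test it. A marker near 0 in microglia could also pass the low-count filter through the mMΦ libraries alone. The genes were chosen as markers of this population, with earlier results of these data known, so their counts are no test of the list. Lyve1, a hyaluronan receptor, was at 1210, 1413 and 1209 CPM against 0.250 to 1.57 CPM (10.37, SE 0.46, adjusted p = 1.5e-05). Cd163, the receptor for haptoglobin bound to haemoglobin, was at 1215, 724 and 765 CPM against 0 to 1.37 CPM (12.15, SE 0.77, adjusted p = 6.8e-05). Cbr2, a carbonyl reductase, was at 3025, 2619 and 2548 CPM against 0.228 to 1.57 CPM (11.99, SE 0.76, adjusted p = 6.8e-05). In all 5 microglia libraries these 3 markers stood at 1.57 CPM or less. The 3 that were not called were F13a1, Ccl24 and Timp2. F13a1, the coagulation factor XIII A chain, was at 3618, 3723 and 3148 CPM in mMΦ and at 1.20, 81.6, 1.09, 4.04 and 5.37 CPM in microglia, where replicate 2 stood far above the other libraries (6.98, SE 1.71, adjusted p = 0.053). Without that library F13a1 was called (11.57, adjusted p = 3.1e-05), and with any other library left out it was not (adjusted p from 0.071 to 0.12). Timp2 was at 842 to 919 CPM in mMΦ and 929 to 1015 CPM in microglia (-0.10, SE 0.13, adjusted p = 0.79).

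Of the 24 microglia markers, all tested, 21 were called lower in mMΦ and none higher (median -4.61), and 17 kept the call without each library. This list too was chosen as markers, with earlier results of these data known, so its counts are no test of it. Tmem119 was at 110, 131 and 67.8 CPM in mMΦ against 5956, 4211, 4643, 7939 and 8125 CPM in microglia (-5.58, SE 0.30, adjusted p = 3.8e-05). Sall1, the transcription factor that holds microglia in their state, was at 0, 1.45 and 1.33 CPM against 371, 202, 361, 465 and 479 CPM (-8.34, SE 1.05, adjusted p = 0.0027). P2ry12, Siglech and Gpr34 were still read at 162 CPM or more in every mMΦ library. Fcrls, an Fc receptor-like protein, was at 5503, 5049 and 4674 CPM in mMΦ and 4849 to 8493 CPM in microglia (-0.40, SE 0.20, adjusted p = 0.30), with 2 mMΦ libraries inside the microglia range. Together the 24 genes summed to 9388 to 10935 CPM in mMΦ and 80393 to 109736 CPM in microglia.

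**Figure D2:**
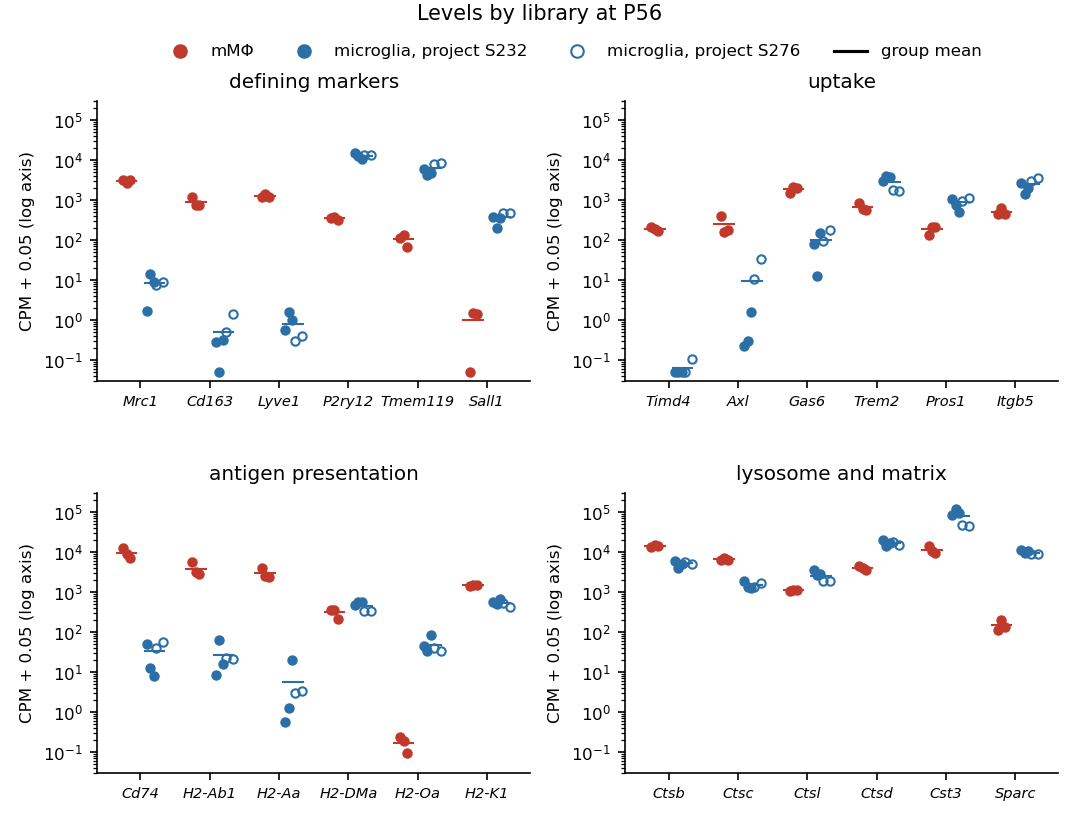
Each dot is 1 library, on a log axis of CPM with 0.05 added so that zeros show; bars are group means, and open blue circles are the 2 microglia libraries of project S276. In Mrc1, Cd163 and Lyve1 all mMΦ libraries lie above all microglia libraries, in P2ry12, Tmem119 and Sall1 below them, and among the class II genes Cd74, H2-Ab1 and H2-Aa are higher in all 3 mMΦ libraries while H2-DMa overlaps.

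Among 41 tested transcription factors of macrophage identity, 7 were called higher in mMΦ and 6 lower (median 0.26). Klf6, a zinc finger factor, was at 3682, 3062 and 2499 CPM in mMΦ against 272 to 569 CPM (2.60, SE 0.23, adjusted p = 4.2e-04), and Cebpb, a leucine zipper factor of myeloid cells, at 557, 670 and 618 CPM against 99.8 to 145 CPM (2.41, SE 0.23, adjusted p = 5.3e-04). Spic, the factor of red pulp macrophages that recycle iron, was at 59.0, 26.6 and 25.7 CPM in mMΦ and was read in 1 microglia library only, at 0.0571 CPM. The calls that stayed without each library in turn, 2 higher and 2 lower, included Klf6, Cebpb and Sall1. The count of higher calls was 4, 2 and 2 without mMΦ replicate 1, 2 or 3 and 4 without microglia replicate 3. That of lower calls was 2, 2 and 3 without those mMΦ libraries and 3 without microglia replicate 3, 4 or 5. The call on Spic ended without each mMΦ library (adjusted p up to 0.069). Spi1 (PU.1), the factor on which all macrophages depend, was at 394 to 507 CPM in mMΦ and 465 to 665 CPM in microglia (-0.41, SE 0.19, adjusted p = 0.27).

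Scavenger and endocytic receptors, which bind and internalise proteins, lipids and debris, were mostly on the mMΦ side: of 23 tested, 12 were called higher and 1 lower (median 2.80), 11 of the 12 in every fit with a library left out. The 1 lower call ended without mMΦ replicate 3 or any 1 microglia library. Cd163, Folr2 and Lyve1 are in this list and also among the border macrophage markers, so the lists are not independent. Msr1, the class A scavenger receptor, was at 501, 518 and 375 CPM against 0.104 to 1.55 CPM (10.32, SE 0.79, adjusted p = 2.1e-04). Colec12, a collectin with scavenger function, was at 236, 342 and 305 CPM against 0.0499 to 0.363 CPM (10.39, SE 0.58, adjusted p = 4.5e-05), and Folr2 at 336, 332 and 266 CPM against 0.0499 to 0.242 CPM (10.69, SE 0.49, adjusted p = 1.5e-05). Stab1 was expressed in both, at 917, 903 and 772 CPM against 117 to 197 CPM, 6.98-fold higher in mMΦ (2.80, SE 0.19, adjusted p = 6.9e-05). Cd68, a protein of late endosomes found in all macrophages, overlapped between the groups, at 1458 to 1719 CPM and 1280 to 1877 CPM.

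Lectins recognise sugars on microbes and on cells. Of 23 tested, 13 were higher in mMΦ and 1 lower (median 8.89), and 10 of the 13 kept the call without each library. Without microglia replicate 2, 3 were lower. Clec4n, Clec10a and Cd209f, among others, are also border macrophage markers, so the lists are not independent. The limits given for the border list hold here too. Clec4n was at 937, 570 and 787 CPM against 0.121 to 0.599 CPM (12.04, SE 0.44, adjusted p = 7.0e-06). Clec10a, a receptor for galactose-type sugars, was at 645, 535 and 535 CPM against 0.0998 to 0.514 CPM (11.95, SE 0.66, adjusted p = 4.1e-05), and its close relative Mgl2, whose reads can be confused with those of Clec10a, was higher too. Cd209f was at 546, 704 and 689 CPM against 0 to 0.484 CPM (12.02, SE 0.88, adjusted p = 1.5e-04; 13.37 without microglia replicate 2), and Cd209a, Cd209b and Cd209g were called as well, in a family of near copies among which reads can be misassigned. Cd209a was uneven among the mMΦ libraries, at 1156 CPM in replicate 1 and 301 and 261 CPM in the others. The 1 lectin on the microglia side was Siglech, at 198, 231 and 162 CPM in mMΦ against 3754, 4411, 4733, 2912 and 2627 CPM (-4.45, SE 0.19, adjusted p = 1.5e-05).

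Receptors and bridging proteins for the uptake of dying cells were split, with 6 called higher in mMΦ and 7 lower of 26 tested (median -0.47). On the mMΦ side stood Timd4, a receptor for exposed phosphatidylserine, at 208, 185 and 165 CPM, with 1 read in the 5 microglia libraries together; the ratio of summed counts was 15150 with a 95% interval of 2719 to 598455 that covers counting error only. Axl, a receptor tyrosine kinase of the TAM family, was at 401, 161 and 174 CPM against 0.171, 0.242, 1.51, 10.3 and 33.9 CPM (8.49, SE 1.10, adjusted p = 0.0029; 10.22 without microglia replicate 3), and its ligand Gas6 at 1519, 2103 and 1926 CPM against 12.7 to 173 CPM (4.50, SE 0.80, adjusted p = 0.014). On the microglia side stood Pros1 (protein S), another TAM ligand, at 131, 206 and 212 CPM in mMΦ against 1026, 751, 488, 929 and 1125 CPM (-2.04, SE 0.31, adjusted p = 0.0070). Itgb5, an integrin subunit that binds such bridges, was at 437, 631 and 437 CPM against 1389 to 3447 CPM (adjusted p = 0.0036). Itgb3 was not read in any mMΦ library and stood at 13.7 to 66.2 CPM in microglia, at least 751-fold lower in mMΦ against a floor of 3 counts over the group. Trem2, a lipid receptor that signals through Tyrobp, was at 833, 582 and 563 CPM in mMΦ against 1689 to 4061 CPM (-2.44, SE 0.20, adjusted p = 3.1e-04). The calls were thus opposite for the 2 TAM ligands, Gas6 and Pros1. The call on Gas6 ended without microglia replicate 1 (adjusted p = 0.055), and that on Axl without the project term (adjusted p = 0.088).

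In the complement system and among Fc receptors, 7 of 24 tested genes were higher in mMΦ and 3 lower (median -0.21); 1 was lower without mMΦ replicate 2 or 3 or microglia replicate 2 or 3. C4b, a component of the classical pathway, was at 348, 380 and 271 CPM against 0 to 0.914 CPM (adjusted p = 5.3e-05), and Cfp, properdin, which stabilises the alternative pathway convertase, at 529, 434 and 448 CPM against 0.114 to 3.14 CPM (10.04, SE 0.77, adjusted p = 2.1e-04). Fcgrt, the receptor that protects IgG from breakdown, was at 2309, 2255 and 2227 CPM against 221 to 331 CPM, 7.88-fold higher (2.98, SE 0.19, adjusted p = 6.8e-05), and C5ar1 at 1081 to 1441 CPM against 302 to 505 CPM (1.75, SE 0.20, adjusted p = 0.0016). The C1q chains were high in both groups. C1qb was at 16346, 14986 and 13813 CPM in mMΦ and 20862, 23259 and 23342 CPM in the S232 microglia, and at 13817 and 11960 CPM in the S276 microglia (-0.58, SE 0.12, adjusted p = 0.024). C1qb and C1qc lost the call without the project term (adjusted p = 0.64 and 0.50) and without several single libraries, with the highest adjusted p, 0.11 for each, without mMΦ replicate 3. Itgam, the CD11b chain of complement receptor 3, was 4.12-fold lower in mMΦ, at 58.4 to 87.0 CPM against 234 to 390 CPM (-2.04, SE 0.25, adjusted p = 0.0021).

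Of 36 pattern recognition genes tested, 4 were higher in mMΦ and 4 lower (median 0.23). Cd14, the co-receptor that delivers lipopolysaccharide to Tlr4, was at 4295, 4503 and 4329 CPM against 589 to 790 CPM (2.63, SE 0.16, adjusted p = 4.8e-05). Fpr1, a receptor for formylated bacterial peptides, was at 204, 102 and 113 CPM, and microglia held it in replicate 5 only, at 0.114 CPM. Sting1, the adaptor of cytosolic DNA sensing, was lower in mMΦ, at 173, 280 and 266 CPM against 1038 to 1887 CPM (-2.50, SE 0.30, adjusted p = 0.0020), as was Pycard, the inflammasome adaptor ASC, at 82.8, 77.2 and 56.2 CPM against 179 to 505 CPM (-2.33, SE 0.33, adjusted p = 0.0050). Tlr2 was at 375 to 452 CPM in mMΦ and 46.7 to 271 CPM in microglia and was not called (1.27, SE 0.54, adjusted p = 0.22).

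Genes of MHC class II and of costimulation were higher in mMΦ for 6 of 20 tested and lower for 2 (median 0.72). Cd74, the invariant chain that escorts class II molecules, was at 12399, 8729 and 7170 CPM against 50.9, 12.6, 7.76, 40.6 and 55.5 CPM (8.63, SE 0.85, adjusted p = 8.3e-04). The class II chain H2-Ab1 was at 5521, 3109 and 2873 CPM against 8.45 to 62.1 CPM (7.07, SE 0.84, adjusted p = 0.0020), and H2-Aa at 3912, 2480 and 2399 CPM against 0.514 to 19.6 CPM (8.66, SE 1.41, adjusted p = 0.0097; 11.82 without microglia replicate 3). Cd83, a maturation marker, was 5.20-fold higher (2.38, SE 0.29, adjusted p = 0.0023). mMΦ replicate 1 was the highest library for each of these 3 class II genes. The genes of the loading step did not follow: H2-DMa, which exchanges peptides, was at 352, 361 and 207 CPM in mMΦ and 330 to 553 CPM in microglia (-0.76, SE 0.24, adjusted p = 0.12). H2-Oa, whose product restrains H2-DM, was at 0.0444 to 0.187 CPM in mMΦ against 33.0 to 81.4 CPM (-8.73, SE 1.02, adjusted p = 0.0018), and Ctss, the protease that trims the invariant chain, was 3.01-fold lower in mMΦ (-1.59, SE 0.14, adjusted p = 3.5e-04). In MHC class I, 1 of 23 was lower and 2 were higher, H2-D1 (1.92, SE 0.20, adjusted p = 0.0010) and H2-K1 (1.35, SE 0.18, adjusted p = 0.0028), both class I heavy chains. The lower call ended without any 1 mMΦ library and without microglia replicate 3, 4 or 5. B2m, their light chain, was at 3651 to 5682 CPM and 2509 to 6100 CPM and overlapped.

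Of 38 tested genes induced by interferon, 10 were called higher in mMΦ and none lower. A fold change above 0 was found in 37 (median 3.36), against 5624 of all 11854 genes. In 25 all 3 mMΦ libraries stood above all microglia libraries, as in 9.90% of all genes. A gene near 0 in microglia could pass the low-count filter through the mMΦ libraries alone. The list was also chosen with earlier results of these data known, so these counts are no test of it. Oasl2, of the oligoadenylate synthetase family, was at 174, 165 and 200 CPM against 0.171, 0.363, 0.156, 13.2 and 3.43 CPM (9.67, SE 0.80, adjusted p = 2.9e-04). Ifi207, a member of the DNA-binding p200 family whose near copies can share reads, was at 449, 400 and 396 CPM against 0.0521 to 7.14 CPM (8.80, SE 1.29, adjusted p = 0.0058; 12.31 without microglia replicate 1). Bst2 (tetherin), which holds budding virus at the membrane, was at 963, 641 and 710 CPM against 166, 240, 196, 125 and 81.1 CPM (1.94, SE 0.27, adjusted p = 0.0041). Ly6e, a surface protein of the Ly6 family, was not called (0.34, SE 0.15, adjusted p = 0.26). Only 4 of the 10 kept the call without each library, and 4, 5 and 4 were left without mMΦ replicate 1, 2 or 3. DESeq2, which called 1952 genes in all, called 21 of this list.

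The promoters of these genes were read for the interferon-stimulated response element (ISRE), the site of the interferon-activated factor ISGF3, written GAAA, any 2 bases and GAAA again, and searched on both strands. The RefSeq windows run from 250 bases before to 50 after each start in build GRCm38.p6, and 29 of the 40 members matched. The element was in 17 of their 37 promoters (45.9%) and in 3.44% of all 32851 promoters; among members with a promoter it was in 5 of 7 that were called and 10 of 20 that were not. The windows of 4 called members are shown, each 5′ to 3′ on the strand of the gene, with 1 match in capitals; in Ifi203 and Ifi207 it has the same letters, and in Bst2 and Oas1a another match overlaps it and is left in lower case.
Ifi207 (chr1:173741826-173741865, minus strand, 31 bases before the start): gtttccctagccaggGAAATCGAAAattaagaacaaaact
Ifi203 (chr1:173942503-173942542, minus strand, 25 bases before the start): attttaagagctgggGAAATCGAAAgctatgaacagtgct
Bst2 (chr8:71537572-71537611, minus strand, 114 bases before the start): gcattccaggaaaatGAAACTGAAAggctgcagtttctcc
Oas1a (chr5:120907526-120907560, minus strand, 10 bases before the start): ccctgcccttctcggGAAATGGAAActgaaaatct
Ifi203 was at 134, 63.3 and 96.2 CPM in mMΦ against 0 to 0.363 CPM (9.98, SE 1.69, adjusted p = 0.011; 13.89 without microglia replicate 2) and lost the call without mMΦ replicate 1 or 3 (adjusted p = 0.053 and 0.054). Oas1a, with near copies in its family, was at 97.1, 80.0 and 94.3 CPM against 0 to 17.4 CPM (7.97, SE 1.58, adjusted p = 0.024; 11.02 without microglia replicate 3). It lost the call without the project term (adjusted p = 0.15) and without 4 of the 8 libraries, with the highest adjusted p, 0.084, without mMΦ replicate 3.

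Among chemokines and cytokines, 12 of 32 tested were higher in mMΦ and 1 lower (median 2.73), and 9 of the 12 kept the call without each library; without microglia replicate 3, 2 were lower. Pf4, a platelet-type chemokine, was at 4879, 2585 and 2822 CPM against 1.15 to 4.36 CPM (10.52, SE 0.65, adjusted p = 6.3e-05). The neutrophil attractant Cxcl2 was at 743, 698 and 603 CPM against 0.171 to 1.70 CPM (11.33, SE 0.54, adjusted p = 1.9e-05), and the related Cxcl1 at 231, 134 and 62.9 CPM against 0, 0, 0, 0.250 and 0.571 CPM (adjusted p = 0.0018). Of the CC chemokines that draw monocytes, Ccl2 was at 1606, 1369 and 1479 CPM against at most 35.7 CPM (5.80, SE 0.33, adjusted p = 4.5e-05), Ccl7 at 3233, 1663 and 2153 CPM against 0.628 to 10.3 CPM (9.13, SE 1.23, adjusted p = 0.0037; 11.30 without microglia replicate 3), and Ccl8 at 188 to 320 CPM against 0.114 to 0.898 CPM (10.12, SE 0.66, adjusted p = 7.5e-05). The 2 forms of interleukin 1 went apart. Il1b was at 763, 573 and 645 CPM in mMΦ against 10.5 to 86.7 CPM (3.87, SE 0.54, adjusted p = 0.0045), and Il1a, the 1 member that was lower, at 51.9, 59.0 and 78.4 CPM against 129 to 260 CPM (-1.88, SE 0.30, adjusted p = 0.0074).

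The kappa B motif, the site of NF-kappa B, was searched in the same windows: it was in 8 of 34 promoters of this list (23.5%) and in 4.51% of all promoters, in 2 of 9 called and 5 of 12 uncalled members with a promoter. The 2 called members that hold it, Cxcl1 and Cxcl2, are neighbours with the same 10 letters, given in capitals. The run reads as a match on both strands, 1 base apart.
Cxcl1 (chr5:90891159-90891198, plus strand, 61 bases before the start): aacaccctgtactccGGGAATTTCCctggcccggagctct
Cxcl2 (chr5:90903787-90903826, plus strand, 87 bases before the start): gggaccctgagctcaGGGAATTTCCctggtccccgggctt

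Immediate early genes are switched on quickly by many stimuli, the handling of cells among them, and a list of 34 was read beside the cytokines. It summed to 49644, 59492 and 72214 CPM in mMΦ and to 4497 to 9342 CPM in microglia, with 23 members higher in mMΦ, none lower and a median log2 fold change of 2.98; 17 kept the call without each library. Fos was at 7749, 9903 and 11280 CPM against 404 to 1716 CPM (3.04, SE 0.32, adjusted p = 0.0012) and Egr1 at 2340, 4715 and 6400 CPM against 275 to 619 CPM (3.18, SE 0.43, adjusted p = 0.0039). Zfp36, which destabilises cytokine mRNA, was at 4554, 5547 and 6394 CPM against 281 to 541 CPM (3.44, SE 0.27, adjusted p = 2.1e-04), and Atf3, a stress factor, at 4540, 4923 and 4904 CPM against 176 to 609 CPM (3.62, SE 0.38, adjusted p = 0.0012). The sum in pvMΦ of the same age was 31675 to 49601 CPM. The part of this list's difference in the cytokine values was not tested. The cAMP response element TGACGTCA was in 2 of 34 promoters of the list (5.9%), against 1.79% of all promoters. Both belong to called members: Btg2, an antiproliferative factor (2.92, SE 0.43, adjusted p = 0.0058), and Dusp1, a MAP kinase phosphatase (3.60, SE 0.32, adjusted p = 4.4e-04).
Btg2 (chr1:134079299-134079336, minus strand, 158 bases before the start): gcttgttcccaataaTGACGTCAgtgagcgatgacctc
Dusp1 (chr17:26508593-26508630, minus strand, 135 bases before the start): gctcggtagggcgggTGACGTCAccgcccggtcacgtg

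Of 35 cytokine and chemokine receptors tested, 3 were higher in mMΦ and 4 lower (median -0.21). The 3 higher calls fell to 1 without mMΦ replicate 2 or 3 or microglia replicate 4 or 5, and within project S232, and 1 was kept without each library in turn. Ccr1, a receptor for several CC chemokines, was at 519, 686 and 645 CPM against 0.285 to 20.7 CPM (6.75, SE 1.12, adjusted p = 0.011). Ifngr1, a chain of the receptor for interferon gamma, was 2.38-fold lower in mMΦ, at 884, 920 and 924 CPM against 1907 to 2315 CPM (-1.25, SE 0.14, adjusted p = 0.0013). Il10rb was at 576 to 628 CPM in mMΦ and 271 to 423 CPM in microglia and was not called (0.63, SE 0.18, adjusted p = 0.086).

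In the TGF-beta and BMP pathways 3 of 31 tested genes were higher in mMΦ and 3 lower (median -0.78). Tgfbr1, the signalling receptor of TGF-beta, on which the adult microglial state depends, was at 129, 87.7 and 115 CPM in mMΦ against 1664, 1258, 1148, 2220 and 2670 CPM (-3.62, SE 0.23, adjusted p = 6.9e-05). Tgfbr2, its partner, was at 291 to 345 CPM and 198 to 886 CPM and overlapped (-0.08, SE 0.34, adjusted p = 0.95). Itgav, which with Itgb8 or other chains releases TGF-beta from its latent form, was 12.2-fold lower in mMΦ (-3.61, SE 0.43, adjusted p = 0.0020), and Nrros, which holds latent TGF-beta on microglia and other macrophages, was 2.51-fold higher (1.33, SE 0.22, adjusted p = 0.0092). Bmp2 was at 184, 137 and 176 CPM in mMΦ and at 0, 0, 0, 0 and 0.0571 CPM in microglia (adjusted p = 8.7e-04). Among growth factors and their receptors, 4 of 20 were higher and 1 lower (median 0.03), a call that ended without mMΦ replicate 3 or any 1 microglia library. Igf1 was at 409, 301 and 309 CPM against 0.171 to 4.01 CPM (7.75, SE 1.17, adjusted p = 0.0065; 10.39 without microglia replicate 3), Igfbp4, which binds such factors, at 956 to 1079 CPM against 42.0 to 75.6 CPM (4.06, SE 0.27, adjusted p = 8.6e-05), and Nrp1, a co-receptor for VEGF and semaphorins, at 452 to 718 CPM against 102 to 160 CPM (2.28, SE 0.28, adjusted p = 0.0023).

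Iron and haem handling was on the mMΦ side in 7 of 23 tested genes and on the microglia side in 1 (median 1.03). The steps of haem breakdown were among them: Cd163 (above) takes haemoglobin up, Hmox1 (haem oxygenase 1) opens the haem ring, and Blvra reduces the product, biliverdin. Blvrb, another gene named as a biliverdin reductase, was higher too. Hmox1 was at 322, 431 and 592 CPM against 18.7, 22.8, 40.4, 45.6 and 70.8 CPM (4.04, SE 0.42, adjusted p = 0.0012). Blvrb was at 780, 532 and 520 CPM against 36.2 to 108 CPM (2.97, SE 0.40, adjusted p = 0.0039), and Blvra at 219 CPM or more against 50.6 to 79.2 CPM (1.92, SE 0.29, adjusted p = 0.0059). Cp, the ferroxidase ceruloplasmin, was at 376 to 493 CPM against 0.156 to 4.48 CPM (8.13, SE 1.36, adjusted p = 0.011; 11.04 without microglia replicate 2). Slc46a1, a carrier of folate and haem, was lower in mMΦ, at 24.2 to 59.1 CPM against 202 to 449 CPM (-3.12, SE 0.43, adjusted p = 0.0041). Slc40a1 (ferroportin), the exporter of iron, was at 327 to 587 CPM and 103 to 465 CPM and overlapped (0.56, SE 0.49, adjusted p = 0.64).

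Lysosomal genes were divided by enzyme. Of 36 tested, 3 were higher in mMΦ and 7 lower (median -0.10), and the 7 kept the call without each library. The cathepsins split: Ctsb was at 13494, 14971 and 14216 CPM against 3865 to 6009 CPM (1.51, SE 0.17, adjusted p = 0.0017) and Ctsc at 6320, 6979 and 6280 CPM against 1258 to 1850 CPM (2.15, SE 0.19, adjusted p = 4.6e-04), whereas Ctsd was at 4384, 3913 and 3508 CPM against 13836 to 19926 CPM (-2.09, SE 0.17, adjusted p = 2.8e-04). Cst3 (cystatin C), a secreted inhibitor of cathepsins, was at 13745, 10258 and 9531 CPM against 82147, 119867, 94157, 47310 and 44185 CPM (-3.14, SE 0.19, adjusted p = 6.3e-05), with the S276 microglia below the other 3.

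In lipid uptake, transport and efflux 4 of 25 tested genes were higher in mMΦ and 3 lower (median 0.57). Beside Apoe, Pltp (phospholipid transfer protein) was at 652, 932 and 704 CPM against 0.0571 to 5.99 CPM (11.07, SE 0.69, adjusted p = 6.3e-05) and Cd36, a fatty acid and lipoprotein receptor, at 356, 348 and 496 CPM against 0.114 to 5.74 CPM (10.05, SE 0.72, adjusted p = 1.3e-04). Mylip, a ubiquitin ligase, was 10.8-fold lower (-3.43, SE 0.34, adjusted p = 8.6e-04). Of 23 genes of cholesterol synthesis, 3 were higher and none lower. A fold change above 0 was found in 19 (median 2.39), against 5624 of all 11854 genes. In 12 all 3 mMΦ libraries stood above all microglia libraries, as in 9.90% of all genes. The limits given for the interferon list hold here too. The 3 calls fell to 1 without any 1 mMΦ library and without microglia replicate 4 or 5, and 1 was kept without each library in turn. The list summed to 976, 1254 and 1173 CPM in mMΦ and 434 to 542 CPM in microglia. The sterol element TCACNCCAC was in 1 of 19 of their promoters (5.3%) and in 1.24% of all. In the eicosanoid pathway 3 of 21 were higher and 2 lower (median -0.16), and 1 was lower when any 1 library but microglia replicate 1 was left out. Ptgs1 (cyclooxygenase 1) was 5.14-fold lower in mMΦ, at 210, 261 and 254 CPM against 789 to 1791 CPM (-2.36, SE 0.29, adjusted p = 0.0025), and Alox5, the first enzyme of leukotriene synthesis, 3.56-fold higher (1.83, SE 0.33, adjusted p = 0.014), a call that ended without mMΦ replicate 2 or 3 (adjusted p = 0.053 and 0.078).

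Purines and other nucleotides, released by damaged or active cells, are sensed by several families of receptors. Of 18 genes tested in the purine list, 5 were lower and 3 higher (median -0.33). P2ry13 was at 557 to 721 CPM against 2381 to 4513 CPM (-2.29, SE 0.25, adjusted p = 0.0014) and Gpr34, a receptor for lysophosphatidylserine, at 354, 498 and 482 CPM against 5001 to 7712 CPM (-3.84, SE 0.21, adjusted p = 4.1e-05). Adora3, the adenosine A3 receptor, was not read in mMΦ and stood at 97.0 to 188 CPM in microglia, at least 2610-fold lower. Cd38, which breaks down NAD, was on the other side, at 534, 400 and 336 CPM against 0.0571 to 2.76 CPM (8.65, SE 1.29, adjusted p = 0.0062; 12.26 without microglia replicate 3), as was the ATP-gated channel P2rx4, 4.40-fold higher (2.14, SE 0.25, adjusted p = 0.0016). P2ry6, the UDP receptor of microglial phagocytosis, was at 337 to 359 CPM and 371 to 500 CPM (-0.34, SE 0.18, adjusted p = 0.34). Of 27 ion channels tested 3 were lower and none higher (11.1% called, against 6.02% of all genes). Of the 3, the potassium channel Kcnd1 was called in every fit with a library left out. Kcnd1 was read in mMΦ replicate 1 only, at 0.0623 CPM, against 15.1 to 115 CPM in microglia. Without microglia replicate 4 or 5, 1 channel was lower, and without microglia replicate 1 or 3, 1 was higher. Of 27 transporters 5 were lower and 1 higher, among them Slco4a1, not read in mMΦ and at least 1214-fold lower. The 5 fell to 3 without mMΦ replicate 3 or microglia replicate 1, 4 or 5, and the higher call ended without any 1 mMΦ library and without microglia replicate 1 or 3. In glycolysis 1 of 22 genes was called (4.55%, against 6.02% of all genes), and 3 were without microglia replicate 2. The called gene was Ldhb, a lactate dehydrogenase chain, at 27.6, 58.4 and 15.6 CPM against 558 to 808 CPM (-4.53, SE 0.48, adjusted p = 0.0012). Its partner Ldha overlapped at 299 to 341 CPM and 219 to 311 CPM (0.14, SE 0.19, adjusted p = 0.79).

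Adhesion and guidance was the list with most members lower in mMΦ after the microglia markers, 13 of 33 tested, with 5 higher (median -1.57). Selplg (PSGL-1), the ligand of P-selectin, was at 195, 305 and 234 CPM against 10310, 6906, 6461, 8711 and 8982 CPM (-5.01, SE 0.26, adjusted p = 3.8e-05). Adgrg1 (GPR56), an adhesion receptor, was at 0.125, 0 and 0.222 CPM against 475, 518, 479, 1297 and 1598 CPM (-11.98, SE 0.68, adjusted p = 4.5e-05), and F11r (JAM-A) at 118 to 155 CPM against 1507 to 2436 CPM (-3.89, SE 0.23, adjusted p = 5.6e-05). The tetraspanins Cd9 and Cd81 were 19.2-fold and 6.04-fold lower. On the mMΦ side Vcam1 was at 531, 345 and 360 CPM against at most 19.1 CPM (6.13, SE 0.67, adjusted p = 0.0014) and Adgre1 (F4/80) at 2298, 2022 and 1756 CPM against 550 to 1004 CPM (1.53, SE 0.19, adjusted p = 0.0026). Of 28 tested genes of the matrix, proteases and inhibitors, 5 were higher and 4 lower (median -0.69). Sparc, a collagen-binding glycoprotein, was at 110, 198 and 136 CPM against 8606 to 11120 CPM (-6.11, SE 0.26, adjusted p = 1.5e-05), and Mmp9 at 221, 126 and 107 CPM against 0 to 1.08 CPM (8.34, SE 1.20, adjusted p = 0.0050; 10.11 without microglia replicate 1).

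Of 23 tested genes that microglia raise in disease and around lipid debris, 7 were higher in mMΦ and 4 lower (median 0.37). Apoe, Axl, Igf1, Ctsb, Clec7a (Dectin-1) and Gpx3 were among the higher ones, and Trem2, Cd9, Ctsd and Ctsl the lower ones. Clec7a was at 103, 184 and 192 CPM against 0 to 27.4 CPM and, like Axl, was higher in the 2 S276 microglia libraries than in the other 3 (8.89, SE 1.18, adjusted p = 0.0035; 0.16 without the project term). Of 18 proliferation genes, 2 were called higher (11.1% called, against 6.02% of all genes), and neither kept the call without each library.

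**Figure D3:**
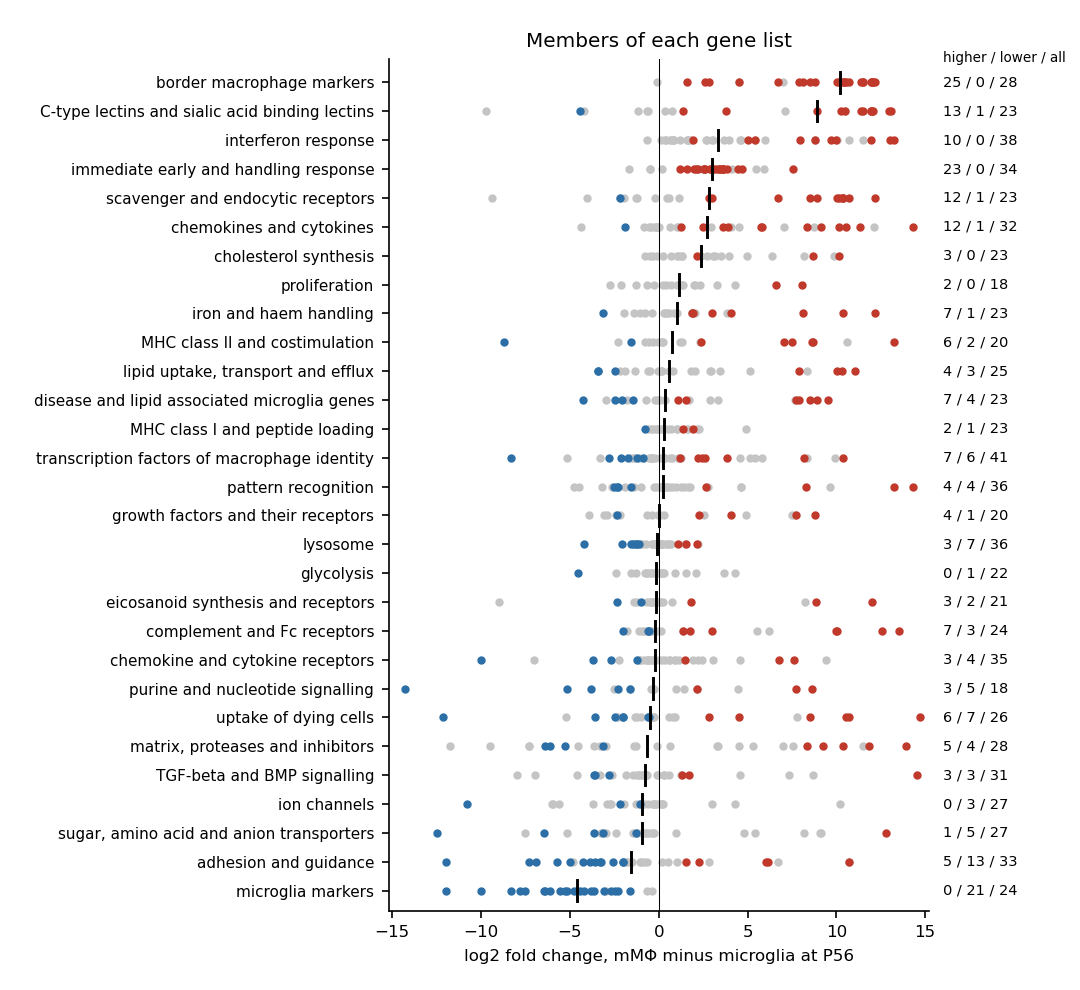
Each row is a gene list and each dot 1 tested member at its log2 fold change, red where called higher in mMΦ, blue where lower and grey where not called; black bars are list medians and the numbers at the right give members higher, lower and tested. Of the lists plotted, which leave out the markers of other cell types, the border macrophage markers (median 10.19) and lectins (8.89) lie farthest to the right, and the microglia markers (-4.61) and adhesion genes (-1.57) to the left. The border macrophage and lectin lists share members, Clec4n and Clec10a among them.

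Markers of 14 other cell types were summed per library and compared by an exact two-sided permutation test over the 56 ways to choose 3 of 8 libraries, whose smallest p is 0.018, adjusted over the 14 lists. The sums differed for 8 lists (adjusted p = 0.031 for each in this permutation test): 7 were higher in mMΦ, and the dendritic cell list was lower, with Siglech, also a microglia marker, in it. Without any 1 mMΦ library the smallest p the test allows could not pass. The fibroblast and leptomeningeal list of 20 genes summed to 1912, 830 and 1042 CPM in mMΦ and 2.68 to 9.79 CPM in microglia. Most of it was Ptgds, prostaglandin D synthase, at 1599, 649 and 818 CPM against 0 to 9.17 CPM (8.23, SE 1.58, adjusted p = 0.021; 11.36 without microglia replicate 3), which also appears among eicosanoid enzymes. Its call ended without mMΦ replicate 1 or 3 or microglia replicate 1 (adjusted p up to 0.063). The ependymal and choroid plexus list summed to 177, 963 and 130 CPM against 0.104 to 5.79 CPM, with replicate 2 far above the other mMΦ libraries; in it Ttr (transthyretin) was at 154, 544 and 90.1 CPM (13.06, SE 1.39, adjusted p = 0.0012; 15.31 without microglia replicate 2) and Enpp2 at 0.623, 340 and 30.0 CPM. The monocyte list summed to 501, 945 and 784 CPM against 37.3 to 72.2 CPM, with Nr4a1 (also a handling gene, its call lost without 4 of the 8 libraries, adjusted p up to 0.082 without mMΦ replicate 3) at 386, 797 and 717 CPM in it and Ccr2, the receptor of classical monocytes, at 99.1, 141 and 62.0 CPM against 0.104 to 12.3 CPM, not called (4.58, adjusted p = 0.17). Without microglia replicate 1 Ccr2 was called (9.74, adjusted p = 0.0024), and with any other library left out it was not (adjusted p from 0.20 to 0.32). The T and NK cell list summed to 50.5, 63.3 and 175 CPM in mMΦ, nearly all from Cd4, which macrophages can express, and 10 of its 12 genes, Cd3e and Trac among them, were at 0 in all 3 mMΦ libraries. In the neutrophil list Mmp9 made up nearly all of 107 to 221 CPM, and 6 of 12 members were at 0. The neuron and the pericyte and smooth muscle lists were higher too, at 31.5 to 58.2 against 3.51 to 28.2 CPM and at 21.8 to 30.4 against 0.781 to 8.96 CPM. The dendritic cell list was lower in mMΦ, at 1091 to 2079 against 3287 to 5022 CPM. The direction depended on which genes were in the list. Without Siglech, a choice made after seeing the data, the other 11 genes summed to 1880, 893 and 929 CPM in mMΦ. In microglia they summed to 243 to 659 CPM, below every mMΦ library. Most of the mMΦ sum was Cd209a (1156, 301 and 261 CPM) and Clec10a (645, 535 and 535 CPM). Clec10a is also a border macrophage marker, and the list without these 2 genes was not tested. Of 8 members of the whole list tested, 2 were called higher (Cd209a and Clec10a) and 2 lower (Siglech and Fscn1), with a median log2 fold change of 1.81. How much any of these lists contributed to the genes described above was not tested.

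**Figure D4:**
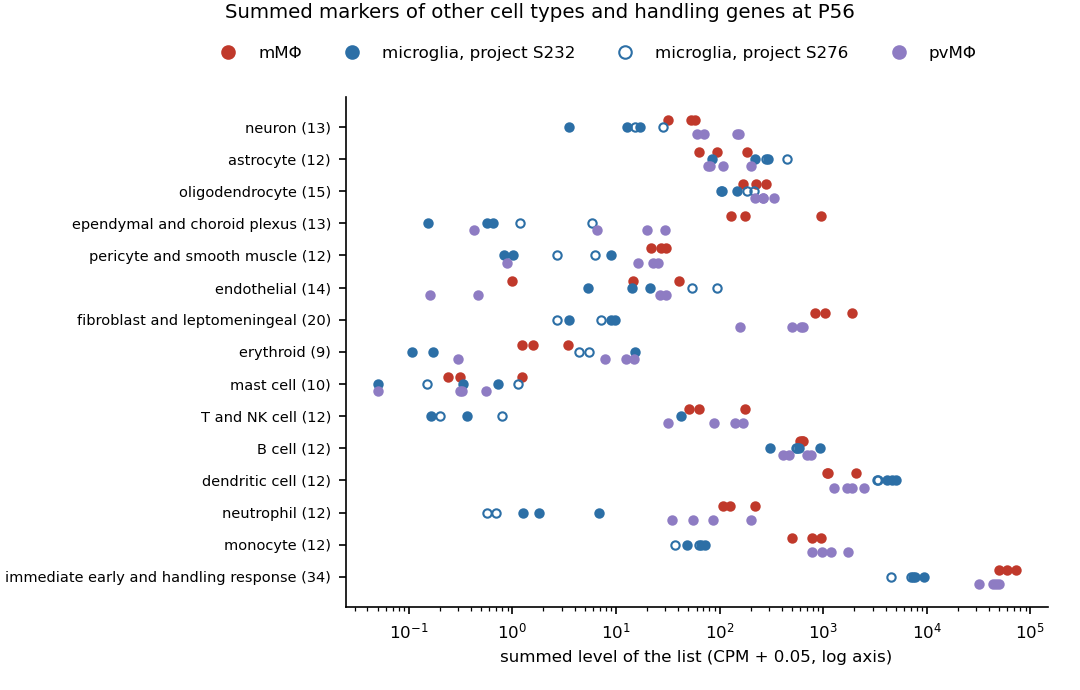
Each dot is the summed level of a marker list in 1 library at P56, on a log axis of CPM with 0.05 added, for mMΦ (red), microglia (blue, open for project S276) and pvMΦ (purple), with the number of genes of each list in brackets. The fibroblast and leptomeningeal sum is 830 to 1912 CPM in mMΦ and under 10 CPM in microglia, and the handling genes sum to 49644 to 72214 CPM in mMΦ.

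The difference between the 2 populations was set against the same difference at P21, in 1 fit of 16 libraries. At P21 alone 1231 of 12232 genes were called (10.1%). The 2 differences themselves departed from each other in 5 of 13775 genes tested (0.0363%), with 813 at an unadjusted p under 0.05. For 3 genes the gap to microglia was wider at P56. Upk1b, a uroplakin, was at 8.53, 13.8 and 5.78 CPM in mMΦ at P21 and was not read at P56, while microglia held it at 161 to 228 CPM and 167 to 230 CPM (-10.53, SE 0.67). Adgrg1 was at up to 17.5 CPM in mMΦ at P21, where its 3 libraries lay close together, against 0 to 0.222 CPM at P56 (-6.63, SE 0.58). Angptl7 was at 9.49, 35.4 and 10.7 CPM in mMΦ at P21 and 0, 0 and 0.0444 CPM at P56 (-10.52, SE 1.39). In these 3 genes every mMΦ library read lower at P56 than at P21. The fitted differences of Upk1b and Angptl7 rest on mMΦ values at or near 0 and are no bounds.

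For 2 genes the gap was narrower at P56. Cd81 was at 381, 455 and 398 CPM in mMΦ at P21 and 1023, 1193 and 918 CPM at P56, and at 5149 to 5479 CPM and 4939 to 7594 CPM in microglia (1.25, SE 0.18). H2-DMa was at 40.6, 80.8 and 77.0 CPM in mMΦ at P21 and 352, 361 and 207 CPM at P56, and at 356 to 510 CPM and 330 to 553 CPM in microglia (2.19, SE 0.32). Other class II genes lay the same way without a call: Cd74 was at 876, 256 and 757 CPM in mMΦ at P21 and 7170 to 12399 CPM at P56 (5.52, adjusted p = 0.068), and H2-Ab1 at 301, 67.4 and 207 CPM and 2873 to 5521 CPM (4.49, adjusted p = 0.11). The number of such genes moved with single libraries: it was 3 without either S276 microglia library, 8 without mMΦ replicate 3, and 9 without mMΦ replicate 2 or microglia replicate 3. Within project S232 it was 7, of which 2 were among these 5. Without mMΦ replicate 1 or either S276 microglia library, no gene was called in the direction of Cd81 and H2-DMa. Both of these genes therefore lost the call in those fits.

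**Figure D5:**
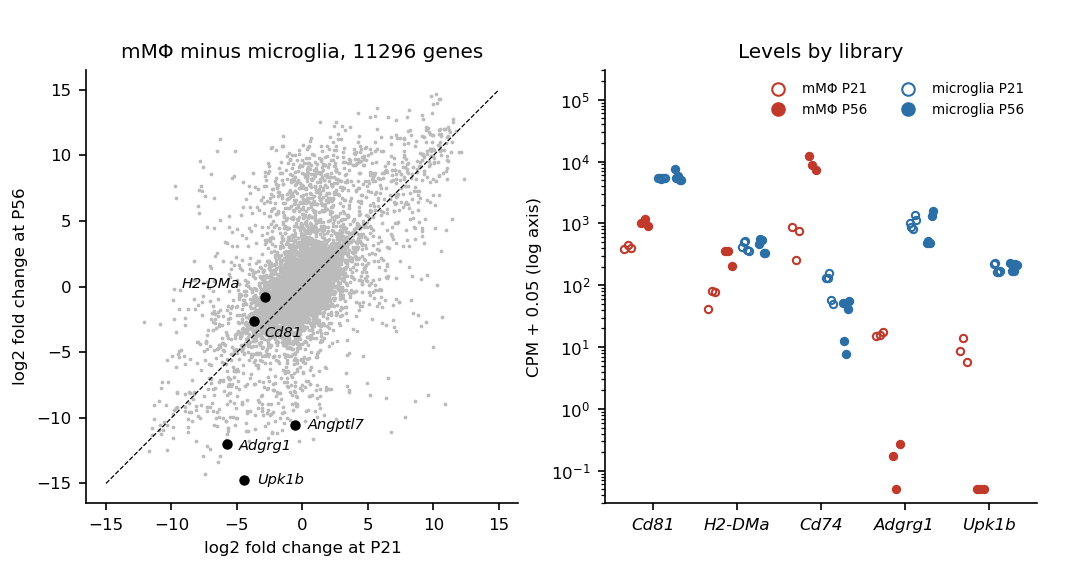
Left, the log2 fold change of mMΦ over microglia at P56 against that at P21, 1 dot per gene, with the line of equal values dashed and the 5 genes whose difference departed between ages in black. Right, the levels of Cd81, H2-DMa, Cd74, Adgrg1 and Upk1b by library on a log axis of CPM with 0.05 added, open at P21 and filled at P56. Cd74 is not among the 5 genes in black, and Angptl7, which is, is not drawn on the right. In mMΦ (red) H2-DMa goes from 40.6 to 80.8 CPM at P21 to 207 to 361 CPM at P56 while microglia (blue) stay between 330 and 553 CPM.

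Set against pvMΦ of the same age, the other border population, mMΦ differed in 12 of 12867 genes (0.0933%), all lower in mMΦ, with 1030 at an unadjusted p under 0.05. The 12 included the microglia markers P2ry12, Sparc, Tmem119, Siglech, Adgrg1, Olfml3 and Gpr34. The whole list of 24 microglia markers summed to 19479, 24104, 15734 and 23416 CPM in pvMΦ. It summed to 9388 to 10935 CPM in mMΦ and 80393 to 109736 CPM in microglia. Whether these calls reflect mMΦ or a general excess of such transcripts in the pvMΦ libraries was not tested. P2ry12 was at 1463, 2279, 881 and 2414 CPM in pvMΦ and at 320 to 369 CPM in mMΦ (-2.23, SE 0.29, adjusted p = 0.015). Adgrg1 was at 29.4, 89.0, 93.1 and 257 CPM in pvMΦ and 0 to 0.222 CPM in mMΦ, and Tmem119 at 339 to 1293 CPM and 67.8 to 131 CPM. In each of these 3 genes all pvMΦ libraries stood above all mMΦ libraries and below all microglia libraries. In the 7 libraries of mMΦ and pvMΦ alone edgeR called no gene and within project S232 it called 1, whereas DESeq2 called 450 in the fit with microglia. The count was 2 without mMΦ replicate 1 or 3, 6 without mMΦ replicate 2 or pvMΦ replicate 2, and 19 without pvMΦ replicate 3. Lyz2, Mrc1, Cd74, H2-Ab1 and H2-Aa were not called between the 2 border populations (adjusted p = 0.62 for Lyz2 and 1.0 for the others). Against microglia, pvMΦ differed in 465 of 11057 genes (4.21%); that comparison shares its microglia with the one above.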

How the data were processed

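The deposited table holds read counts per gene symbol, not normalised, for 45 libraries. Per the submitters' processing notes, bcl2fastq 2.18, STAR 2.7.8a and featureCounts 2.0.2 were used; no build is named for them, so no gene coordinates of the counts are printed. Per the labels' protocols, cDNA was made with a kit that does not mark strand, so reads of overlapping or antisense genes cannot be told apart. Counts were scaled by TMM over the 17064 genes kept in 45 libraries and tested with the quasi-likelihood test of edgeR 4.0.16 in R 4.3.3, after filterByExpr (minimum count 10, total 15), with the project as a term; DESeq2 1.42.0 was an alternative. The scripts were tested on simulated data. A motif not given above, the 6 letters TGCTGA (called the MARE core), was searched in the promoters of the border macrophage markers. It was in 10 of 31 promoters (32.3%) and in 19.5% of all promoters. Floors are 3 counts over a group, and intervals and floors cover counting error only. Named genes were the 12 with the smallest p and the 10 with the largest fold per direction, up to 6 called per list and direction, up to 3 uncalled per list, and up to 8 per direction in the other comparisons. Some genes that this rule names are not reported here. Other named genes (such as Ccl2, Il1b, Bst2, Oas1a, Fos, Egr1, Zfp36, Btg2 and Dusp1) were chosen after their values were seen. The members and lists were chosen with earlier results of these data known.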

Additional observations from a re-analysis of the deposited data

Results flagged for a closer look

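A library far from the others was looked for in 129 groups, all in microglia at P56 except the total counts of pvMΦ. Of these, 12 (9.30%) held such a library, each in microglia. Chance gives about 1 in 20 for values that vary smoothly; in 4 of the 12 (Timd4, Bmp2, Fpr1 and Spic) the other 4 libraries were all at 0, so the single library read was flagged whatever its level, and that rate does not hold for them. Microglia replicate 2 had the lowest total count, 9898257, against 18571414 to 21933068 in the other 4. It also had the highest summed T and NK cell markers, 42.0 CPM against 0.114 to 0.743 CPM, the highest Pf4, 4.36 CPM against 1.15 to 1.67 CPM, and the lowest Tlr2, 46.7 CPM against 182 to 271 CPM. Microglia replicate 3 had the lowest Slc40a1, 103 CPM against 355 to 465 CPM, and the highest Ptgds, 9.17 CPM against 0 to 0.628 CPM. Sting1 was highest in microglia replicate 1, 1887 CPM against 1038 to 1232 CPM, and Zfp36 lowest in replicate 4, 281 CPM against 479 to 541 CPM. Timd4 and Bmp2 were read in replicate 5 only, at 0.0571 CPM each, as was Fpr1 at 0.114 CPM, and Spic in replicate 1 only, at 0.0571 CPM.

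The difference between mMΦ and microglia departed between P56 and P21 by the test of that difference in edgeR for Upk1b (-10.53), Angptl7 (-10.52), Adgrg1 (-6.63), H2-DMa (2.19) and Cd81 (1.25), all as log2 of the P56 difference minus the P21 difference. The calls on H2-DMa and Cd81 ended without mMΦ replicate 1 and without either S276 microglia library.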

How the results depend on the processing

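The 714 calls between mMΦ and microglia (390 higher, 324 lower) became 1952 (1073, 879) with the DESeq2 Wald test, 1226 (661, 565) with no low-count filter and 2197 (1346, 851) with all 45 libraries in the fit; within project S232 202 genes were lower. With 1 library left out they ranged from 371 to 729 (200 to 446 higher, 171 to 287 lower). Libraries of the same replicate number deviated from their group means with correlations of -0.0626, -0.0374 and 0.00927. With 3 libraries per group these cannot show whether the libraries were paired by mouse. The replicate block was fitted only on replicates 1 to 3 of project S232 in the groups compared. The count was then 275 (184, 91), where S232 without the block gave 518. For the difference between ages it was 6, where S232 without the block gave 7. Against pvMΦ it was 0, in a fit that also left out microglia. The 5 genes that differed between ages became 190 with DESeq2 and 104 with no filter, and 3 to 9 with 1 library left out. The 12 genes against pvMΦ became 450 with DESeq2, 92 with all 45 libraries, 27 with no filter, 1 within project S232, 0 in the 7 libraries of mMΦ and pvMΦ, and 2 to 19 with 1 library left out. Of the marker sums, 0 to 8 lists passed with 1 library left out. Directions turned for B2m (0.16 without the project term, 0.33 without that term and microglia replicate 2, a setting chosen after seeing the data, -0.23 to 0.13 with 1 library left out, 0.09 without mMΦ replicate 3), Cd68 (0.01 in that added setting), Tgfbr2 (0.03 with the replicate block, -0.34 to 0.37 with 1 library left out), the B cell sum (-37.0 to 120 CPM with 1 library left out) and the mast cell sum (-0.203 to 0.297 CPM with 1 library left out); the cause was not tested. Leaving Siglech out turned the dendritic cell sum to 829 CPM (-2985 to -2429 CPM with 1 library left out). Genes at or near 0 limit what depth can show.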
